A study of Homo sapiens with 8 samples.

Results

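Amino acid transporters were taken as the genes of the SLC1, SLC3, SLC6, SLC7, SLC36, SLC38 and SLC43 solute carrier families, chosen by symbol from the table of normalized counts, with hyphenated symbols left out. The rule matched 56 of 18216 genes and used no measured value. RNA was measured in IMR90, a line of human lung fibroblasts, at passage 28. The cells grew in medium with 10% serum at 3% oxygen and 5% carbon dioxide and received the vehicle DMSO, or Nutlin-3a at 3 µg/mL for 6, 9 or 12 h, on the day after they were seeded. Nutlin-3a keeps the ubiquitin ligase MDM2 from binding p53, which raises p53 protein. Each of the 4 groups held 2 libraries of polyA RNA, all of this single line. A single DMSO pair, of a culture time that the labels do not state, served all 3 exposures, so a change with exposure cannot be told apart from a change with culture time. Nor do the labels say that replicates were separate cultures, so the spread behind a p-value is that of these samples alone and may be technical.

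Amino acids cross membranes through carriers of several designs. Heavy chains of the SLC3 family bind light chains of the SLC7 family and bring them to the cell surface, where the pair exchanges one amino acid for another. Sodium-coupled carriers of the SLC1, SLC6 and SLC38 families load the cell, and cationic carriers of the SLC7 family bring in arginine and lysine. SLC43A1 and SLC43A2 let large neutral amino acids pass along their gradient. Carriers of the SLC36 and SLC38 families at the lysosome pass amino acids to the cytosol, where the kinase complex mTORC1 responds to them. Several of these genes are known targets of ATF4, a transcription factor made during amino acid shortage and other stress, and cystine import by SLC7A11 feeds the synthesis of glutathione.

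Libraries held 21.9 to 33.6 M gene reads (M, 1e6). A floor of 3 reads equals 2.46 to 3.75 normalized counts, depending on the library, and covers counting error only. Replicates differed least in the Nutlin-3a pairs, where log2 differences had an SD of 0.118 to 0.129 over 11461 genes, against 0.174 in the DMSO pair. MDM2 and CDKN1A, direct targets of p53, rose at each time (log2 changes of 3.03, 3.10 and 3.13, and of 3.47, 3.85 and 3.90). All 12 fibroblast markers were tested, with summed normalized counts of 1280000 to 1310000 with DMSO, 1240000 to 1260000 at 6 h, 1470000 to 1480000 at 9 h and 1510000 to 1550000 at 12 h, which did not overlap. Such a sum follows its most abundant genes. Of the 12, 2 rose and 1 fell at 6 h (16.7 and 8.33%), 4 and 1 at 9 h (33.3 and 8.33%), and 5 and 2 at 12 h (41.7 and 16.7%). Of all genes, 16.1, 16.2 and 18.5% rose and 20.6, 19.1 and 21.4% fell. The markers' median log2 changes were −0.04, 0.05 and 0.05. Markers of other cell types summed to 478 to 767 (epithelial), 1480 to 2130 (endothelial, mostly the receptor gene TEK), 748 to 993 (immune, mostly CD68) and 55.0 to 85.9 (neural). The epithelial sum was higher at 12 h, 727 to 767, than with DMSO, 507 to 512, and the endothelial sum lower, 1480 to 1560 against 2020 to 2130. Of the listed markers, 6 of 10 epithelial, 6 of 7 endothelial, 5 of 7 immune and 6 of 6 neural genes were in the table, and 3, 4, 1 and 3 were tested. Their part in the transporter results was not tested. In bulk RNA, fewer cells of a type and less RNA per cell cannot be told apart.

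Of the 56 members, 36 had a normalized count of at least 10 in at least 2 libraries and were tested. The 20 others ranged from 0 to 10.4 in any library, among them SLC7A3, SLC7A9, SLC7A10, SLC3A1 and most carriers of neurotransmitters in the SLC6 family. Members summed to 82905 and 88165 normalized counts in the DMSO libraries, 95407 and 93128 at 6 h, 80577 and 80106 at 9 h, and 79421 and 78653 at 12 h. Both 6 h libraries lay above all others, and both 12 h libraries below all others. As a share of all gene counts this was 0.287 to 0.348%. The symbol rule also took SLC7A6OS, a gene on the strand opposite SLC7A6 that encodes no transporter, and the pseudogenes SLC7A5P2 and SLC6A10P. It took SLC43A3 as well, which carries purine nucleobases rather than amino acids and is part of all counts of members. SLC7A5P2 and SLC6A10P resemble SLC7A5 and SLC6A8, and the table kept reads that aligned in several places apart, so the levels of these 4 genes are uncertain.

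Levels between genes were set side by side as normalized count per kb of exon, with lengths from another annotation than that of the table (GENCODE 29). On this scale SLC38A2 (SNAT2, a sodium-coupled carrier of neutral amino acids) was highest, with a mean level of 4522 and a range of 3592 to 5253 over the 8 libraries. SLC1A5 (ASCT2, a glutamine exchanger) had a mean of 2411 (2125 to 2896) and SLC7A5 (LAT1, the light chain for large neutral amino acids) 2064 (1402 to 3154). The ranges of SLC1A5 and SLC7A5 overlapped, and the mean of SLC7A5 was above that of SLC1A5 at 6 h, 3134 against 2818, and below it with DMSO, 1702 against 2261. SLC3A2 (4F2hc or CD98, the heavy chain of LAT1) had a mean of 938 (717 to 1276) and SLC38A1 (SNAT1, a glutamine carrier) 829.7 (600.4 to 1207), ranges that overlapped as well. SLC7A1 (CAT1, the arginine and lysine carrier) followed at 509 and SLC38A10, a little-studied member, at 409, with overlapping ranges (386 to 647 and 397 to 425). At 12 h SLC7A1 was below SLC38A10, 392 against 412. The cystine light chain SLC7A11 stood at 227 and the lowest tested member, SLC7A8 (LAT2), at 1.29.

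**Figure D1:**
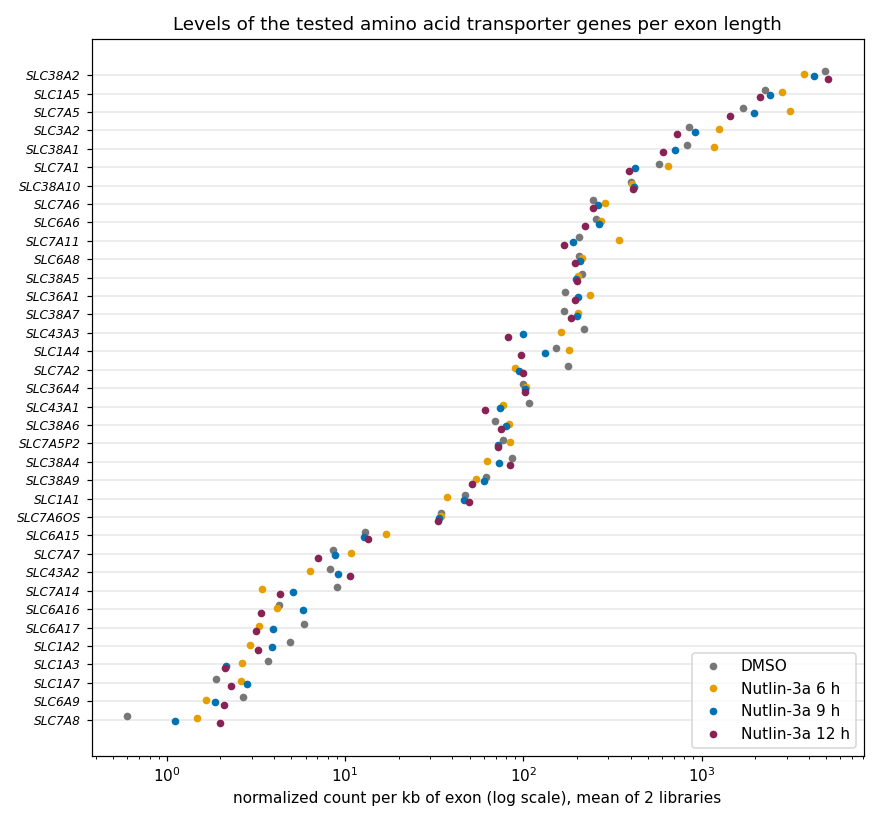
Level of each tested transporter gene per exon length, as the mean of 2 libraries in each group, on a log scale. SLC38A2 had the highest mean level (4522 per kb) and SLC7A8 the lowest (1.29 per kb).

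After 6 h of Nutlin-3a, 12 of the 36 tested transporter genes rose and 9 fell relative to DMSO. The increases were in the heavy chain SLC3A2, the light chains SLC7A5, SLC7A11 and SLC7A6, and the SLC1 exchangers SLC1A5 and SLC1A4. Sodium-coupled carriers (SLC38A1, SLC38A6, SLC38A7 and SLC6A15), the lysosomal carrier SLC36A1 and SLC7A1 rose as well. The decreases were in SLC38A2, SLC38A4, the cationic carriers SLC7A2 and SLC7A14, the facilitative SLC43A1 and SLC43A3, the glutamate carriers SLC1A1 and SLC1A2, and SLC6A17. Members that rose made up 33.3% of those tested and members that fell 25%, against 16.1 and 20.6% of all 14074 genes tested (36.7% in either direction). The median log2 change was 0.04 for the members and −0.01 for all genes. After 9 h 3 members rose and 9 fell (8.33 and 25%, against 16.2 and 19.1% of all genes and 35.3% in either direction), and after 12 h 2 rose and 14 fell (5.56 and 38.9%, against 18.5 and 21.4%, and 39.9% in either direction). The members' median was −0.02 at 9 h and −0.15 at 12 h, against 0.01 for all genes at both times.

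The direct comparison of 12 h with 6 h, in which the DMSO libraries enter only the estimate of spread, called 4 members that rose and 13 that fell (11.1 and 36.1% of those tested, against 14.4 and 17.1% of all genes and 31.5% in either direction). The members' median was −0.15 in this comparison, and that of all genes 0.00. A gene is called where its limma p-value, after Benjamini-Hochberg adjustment over all genes, lies under 0.05. Of 21 calls at 6 h, 14 held in all 21 alternative settings, and 5 of 12 at 9 h and 8 of 16 at 12 h did so. Of 17 calls between 12 and 6 h, 13 held in all 20 settings. The count of 3 that rose at 9 h was 0 without 9 h replicate 1, and that of 2 at 12 h (SLC36A1 and SLC7A8, a gene tested only through its 12 h values) was 0 without 12 h replicate 1 or 2 and 1 without 6 h replicate 1 or 2. The number that rose at 6 h was 8 without 6 h replicate 2.

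**Figure D2:**
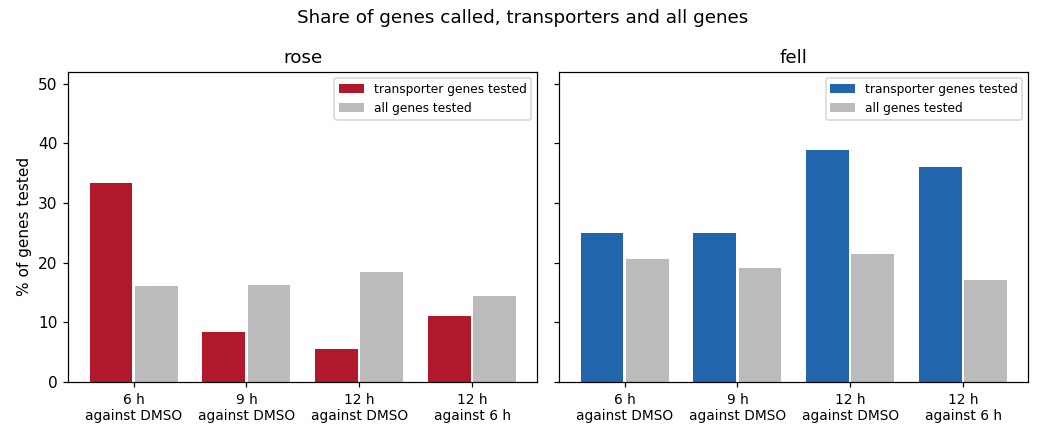
Share of the 36 tested transporter genes that rose (left) or fell (right) in each comparison, beside the share of all 14074 tested genes, as bars in percent. At 6 h 33.3% of transporters rose, against 16.1% of all genes, and at 12 h 38.9% fell, against 21.4%.

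Among the members called at 6 h, SLC7A5 had the largest increase, and its heavy chain SLC3A2 rose as well. SLC7A5 reached 8388 and 7767 normalized counts in the DMSO libraries, 14966 and 14776 at 6 h, 9762 and 8927 at 9 h, and 7106 and 6650.4 at 12 h. Both 6 h libraries lay above all others and both 12 h libraries below all others. The log2 changes from DMSO to 6, 9 and 12 h were 0.88 ± 0.05, 0.21 ± 0.05 and −0.23 ± 0.05, all called, and the log2 change at 12 h relative to 6 h was −1.11 ± 0.05 (0.462-fold), also called. A value with ± after a log2 change is its standard error. SLC3A2 had 4269 and 4564 normalized counts in the DMSO libraries, 6389 and 6606 at 6 h, 4786 and 4722 at 9 h, and 3809.8 and 3712 at 12 h. The 6 h pair was again the highest and the 12 h pair the lowest. Its log2 changes were 0.56 ± 0.05 at 6 h and −0.23 ± 0.05 at 12 h, both called, 0.11 ± 0.05 at 9 h, not called, and −0.79 ± 0.05 at 12 h relative to 6 h. Without DMSO replicate 2 the 9 h value of SLC3A2 was called (0.16). The SLC7A5 call at 9 h was lost without 9 h replicate 1 (0.15) and without an intensity trend, which also ended its 12 h call.

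SLC7A11 (xCT), the light chain that imports cystine in exchange for glutamate, was also highest at 6 h and lowest at 12 h. Its normalized counts were 1821 and 2115 in the DMSO libraries, 3479.7 and 3153 at 6 h, 1855 and 1814 at 9 h, and 1646 and 1614 at 12 h. The 9 h libraries lay within or next to the range of the DMSO pair, and the 12 h libraries below it. It rose at 6 h by a log2 change of 0.75 ± 0.07 (1.69-fold) and fell at 12 h (−0.27 ± 0.07), while the 9 h value was −0.10 ± 0.07. At 12 h it was at 0.492 times its 6 h level (−1.02 ± 0.07). The 12 h call against DMSO was lost without an intensity trend, and without DMSO replicate 1 the 9 h value was called (−0.21). An antisense gene, SLC7A11-AS1, overlaps SLC7A11, the library kit marks the strand, and the strand setting used in counting is not stated, so it is not known whether reads of the pair were kept apart.

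Of the other light chains, SLC7A6 (y+LAT2, which exchanges cationic for neutral amino acids) had 1912 and 1810.2 normalized counts in the DMSO libraries, 2236 and 2140 at 6 h, 2054 and 1905 at 9 h, and 1885 and 1842 at 12 h. Both 6 h libraries were the highest, with a log2 change of 0.23 ± 0.06 at 6 h. At 12 h it was lower than at 6 h (−0.23 ± 0.06), a call lost without 6 h replicate 1 (−0.20). SLC7A7 (y+LAT1) was low, at 35.4 to 56.3 normalized counts, and fell between 6 and 12 h (−0.61 ± 0.21), a call lost with DESeq2 and without 6 h replicate 1 (−0.59) or 2 (−0.63) or 12 h replicate 1 (−0.64) or 2 (−0.58). SLC7A8 lay near the floor, at 3.22 to 12.3. It reached 10 in both 12 h libraries and only 1 other, so it was tested through the group where it was high, and its call at 12 h (1.5 ± 0.50, a value that depends on the pseudocount) supports nothing. The call was also lost with group weights and without DMSO replicate 2 (1.39) or 12 h replicate 1 (1.45) or 2 (1.54). SLC7A6OS and SLC7A5P2 were not called in any comparison.

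The neutral exchangers of the SLC1 family also had their highest values at 6 h. SLC1A5 had 7575 and 7494 normalized counts in the DMSO libraries, 9128 and 9649 at 6 h, 8154 and 8039 at 9 h, and 7135 and 7081 at 12 h. It rose at 6 h (0.32 ± 0.04), and at 12 h, where it was lower than at 6 h (−0.40 ± 0.04), the log2 change from DMSO was −0.08 ± 0.04, not called. The 9 h value of 0.10 ± 0.04 was called without DMSO replicate 1 (0.11), after quantile normalization and by edgeR. SLC1A4 (ASCT1, an exchanger of alanine, serine, cysteine and threonine) had 1026 and 1104 in the DMSO libraries, 1219.5 and 1278 at 6 h, 951 and 882 at 9 h, and 673 and 677 at 12 h. The groups did not overlap, with 6 h highest and 12 h lowest. Its log2 changes were 0.23 ± 0.07, −0.22 ± 0.07 and −0.66 ± 0.07 at 6, 9 and 12 h, and −0.89 ± 0.07 at 12 h relative to 6 h. The 6 h call was lost without 6 h replicate 2 (0.20), and the 9 h call without DMSO replicate 2 (−0.16) or 9 h replicate 2 (−0.16), with quantile normalization (−0.14) and without a trend.

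SLC38A1 rose at 6 h and SLC38A2, a gene known to be raised by amino acid shortage, fell. SLC38A1 had 8047 and 8471 normalized counts in the DMSO libraries, 12085 and 11541 at 6 h, 7146 and 6967 at 9 h, and 6013 and 6199 at 12 h. Its groups did not overlap, and its log2 changes were 0.52 ± 0.05, −0.23 ± 0.05 and −0.44 ± 0.05 at 6, 9 and 12 h, with −0.95 ± 0.05 (0.517-fold) at 12 h relative to 6 h. SLC38A2 had 29985 and 34679 in the DMSO libraries, 25858 and 23712 at 6 h, 27497 and 29133 at 9 h, and 33894 and 34047 at 12 h. The 6 h libraries were the lowest, and the 12 h libraries lay within the range of the DMSO pair. SLC38A2 fell at 6 h (−0.38 ± 0.06) and 9 h (−0.19 ± 0.06), was at 0.08 ± 0.06 at 12 h, not called, and rose between 6 and 12 h (0.46 ± 0.06). The 9 h call was lost without DMSO replicate 2 (−0.08) or 9 h replicate 1 (−0.15) and without a trend, and the 12 h value was called without DMSO replicate 2 (0.18). SLC38A2 made up 36.2 and 39.3% of all members' counts in the DMSO libraries, 27.1 and 25.5% at 6 h, 34.1 and 36.4% at 9 h, and 42.7 and 43.3% at 12 h.

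SLC38A4 (SNAT4), known from liver and placenta, was likewise lowest at 6 h. It had 364 and 351 normalized counts in the DMSO libraries, 261 and 258 at 6 h, 301 and 303 at 9 h, and 340.5 and 357 at 12 h. It fell at 6 h (−0.46 ± 0.09) and 9 h (−0.24 ± 0.09), was not called at 12 h (−0.04 ± 0.09), and rose between 6 and 12 h (0.42 ± 0.09). The 9 h call was lost in 10 of 21 alternatives, among them those without DMSO replicate 1 (−0.22), 9 h replicate 1 (−0.24) or 2 (−0.25) and 12 h replicate 1 or 2 (−0.24 each), and also with DESeq2 and in the authors' deposited tests. Of the 8 tested SLC38 genes, 3 rose and 2 fell at 6 h, 1 rose and 3 fell at 9 h, and 0 rose and 2 fell at 12 h, beside 16.1 and 20.6%, 16.2 and 19.1%, and 18.5 and 21.4% of all genes. SLC38A10 had 3062 and 3127 normalized counts in the DMSO libraries, 3103 and 3148 at 6 h, 3163 and 3282 at 9 h, and 3202 and 3152 at 12 h. It and SLC38A5 (SNAT5), at 723 to 904, were not called in any comparison.

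**Figure D3:**
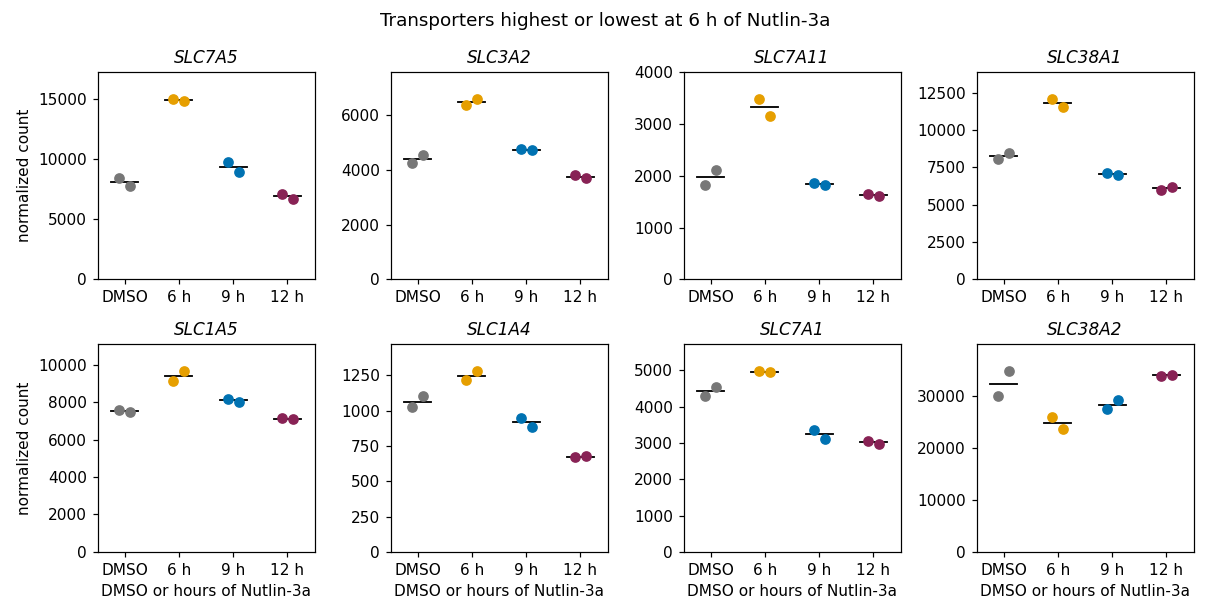
Normalized counts of 8 transporter genes in each library (points) with the group mean (black line), for DMSO and 6, 9 and 12 h of Nutlin-3a. Both 6 h libraries are the highest for 7 genes, SLC7A5 at 14966 and 14776 among them, and the lowest for SLC38A2 at 25858 and 23712.

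SLC7A1 and SLC7A2, the CAT1 and CAT2 carriers of arginine and lysine, differed in course. SLC7A1 had 4310.4 and 4546 normalized counts in the DMSO libraries, 4974 and 4953 at 6 h, 3362 and 3116 at 9 h, and 3064 and 2969 at 12 h. It rose at 6 h (0.17 ± 0.05) and fell at 9 h (−0.45 ± 0.05) and 12 h (−0.55 ± 0.05). The 6 h call was lost without 6 h replicate 1 (0.16) or 2 (0.17) and without a trend, whereas the fall at 9 and 12 h, and between 6 and 12 h (−0.72 ± 0.05), held in every alternative run. SLC7A2 had 1351 and 1454 in the DMSO libraries, 703 and 716 at 6 h, 776 and 728 at 9 h, and 778 and 804 at 12 h. All 6 Nutlin-3a libraries lay below both DMSO libraries, with log2 changes of −0.98 ± 0.07, −0.90 ± 0.07 and −0.82 ± 0.07. The difference between 12 and 6 h was not called for SLC7A2 (0.16 ± 0.07, limma, adjusted p = 0.0780), but was without DMSO replicate 1 or 2 (0.16 each). SLC7A14, a CAT-like lysosomal member, had 81.1 and 107 normalized counts in the DMSO libraries, 36.3 and 35.6 at 6 h, 50.8 and 56.6 at 9 h, and 40.1 and 49.9 at 12 h. All 6 Nutlin-3a libraries were again below both DMSO libraries. It fell at 6 h (−1.35 ± 0.20), 9 h (−0.79 ± 0.20) and 12 h (−1.04 ± 0.20), and the 9 h call was lost without DMSO replicate 2 (−0.59).

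Among the facilitative SLC43 genes, SLC43A3 had the lowest log2 changes at 9 and 12 h. SLC43A3, which carries purine nucleobases rather than amino acids, had 1018 and 969 normalized counts in the DMSO libraries, 719 and 749.5 at 6 h, 471 and 430.3 at 9 h, and 371 and 365 at 12 h. The groups were ordered without overlap and each time was lower than the one before. Its log2 changes were −0.44 ± 0.07, −1.14 ± 0.07 and −1.43 ± 0.07 (0.371-fold at 12 h), and −0.99 ± 0.07 at 12 h relative to 6 h. These 4 calls held in every alternative run. SLC43A1 (LAT3, for large neutral amino acids) had 408 and 359 normalized counts in the DMSO libraries, 265 and 278 at 6 h, 279 and 242 at 9 h, and 232 and 198 at 12 h. All Nutlin-3a libraries lay below both DMSO libraries, and it fell at each time (−0.49 ± 0.11, −0.56 ± 0.11 and −0.83 ± 0.11). Its difference between 12 and 6 h (−0.34 ± 0.11) was lost without 6 h replicate 1 (−0.37) or 2 (−0.31) or 12 h replicate 2 (−0.22), without a trend and with DESeq2. SLC43A2 (LAT4) had 80.1 and 94.5 normalized counts in the DMSO libraries, 73.8 and 61.5 at 6 h, 86.6 and 106 at 9 h, and 113 and 110.3 at 12 h. Its 12 h libraries were the highest and its 6 h libraries the lowest, a rise of 0.72 ± 0.16 from 6 to 12 h. Against DMSO it was not called at any time (−0.36, 0.14 and 0.36), although it was at 6 h without DMSO replicate 1 (−0.48) and at 12 h without DMSO replicate 2 (0.47).

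Of the called members known from the lysosome, SLC36A1 and SLC38A7 rose at 6 and 9 h and SLC38A9 fell at 12 h. SLC7A14 fell at all 3 times. SLC36A4, the other tested SLC36 gene, was not called in any comparison. SLC36A1 (PAT1), which exports small amino acids with protons, had 1174 and 1226 normalized counts in the DMSO libraries, 1659 and 1665 at 6 h, 1522 and 1314 at 9 h, and 1377 and 1324 at 12 h. All Nutlin-3a libraries lay above both DMSO libraries. It rose at all 3 times (0.47 ± 0.07, 0.24 ± 0.07 and 0.17 ± 0.07) and was lower at 12 h than at 6 h (−0.30 ± 0.07). The 9 h call was lost without 9 h replicate 1 (0.13) and without a trend. The 12 h call was lost in 10 of 21 alternatives, among them those without DMSO replicate 1 (0.14), 6 h replicate 1 or 2 (0.17 each) and 12 h replicate 1 (0.14) or 2 (0.20), and also with DESeq2 and in the authors' deposited tests. SLC38A7 (SNAT7), a glutamine carrier, had 1271 and 1084 normalized counts in the DMSO libraries, 1345 and 1476 at 6 h, 1410 and 1394 at 9 h, and 1309 and 1281 at 12 h. All Nutlin-3a libraries lay above both DMSO libraries. It rose at 6 and 9 h (0.26 ± 0.07 each), calls lost without DMSO replicate 2 (0.15 and 0.14), without 6 h replicate 2 (0.20) or 9 h replicate 1 (0.25), and without a trend. Its 12 h value of 0.14 was called without DMSO replicate 1 (0.26). SLC38A9, the arginine sensor that signals to mTORC1, had 552 and 537 normalized counts in the DMSO libraries, 497 and 459 at 6 h, 511 and 549 at 9 h, and 464 and 446 at 12 h. Its groups at 12 h and DMSO did not overlap, and it fell at 12 h (−0.26 ± 0.08). That call was lost without 12 h replicate 2 (−0.23), with quantile normalization (−0.18), with DESeq2 and in the authors' deposited tests.

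**Figure D4:**
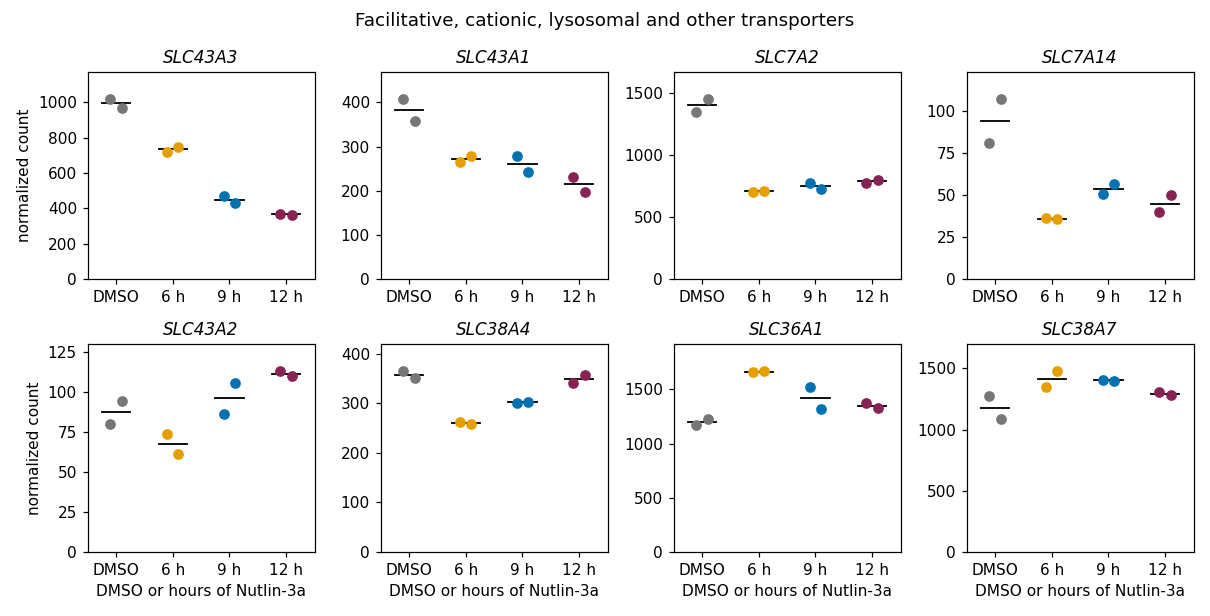
Normalized counts of 8 further transporter genes in each library (points) with the group mean (black line). SLC43A3 was lower at each later time, with 371 and 365 at 12 h against 1018 and 969 with DMSO, while SLC36A1 was above DMSO in all Nutlin-3a libraries.

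Of the 4 tested glutamate carriers of the SLC1 family 2 fell at 6 h, 0 at 9 h and 1 at 12 h. Of the 6 tested SLC6 genes, which carry amino acids, taurine and creatine, 1 rose and 1 fell at 6 h, 0 were called at 9 h and 2 fell at 12 h. Of all genes, 20.6, 19.1 and 21.4% fell and 16.1, 16.2 and 18.5% rose at these times. SLC1A2 (EAAT2), the main glutamate carrier of astrocytes, had 95.8 and 129 normalized counts in the DMSO libraries, 72.5 and 60.5 at 6 h, 92.6 and 85.9 at 9 h, and 73.7 and 74.9 at 12 h. All Nutlin-3a libraries lay below both DMSO libraries. It fell at 6 h (−0.74 ± 0.17) and 12 h (−0.57 ± 0.17). The 12 h call was lost without DMSO replicate 2 (−0.36) or 12 h replicate 1 (−0.56) or 2 (−0.59), with DESeq2 and in the authors' deposited tests, and the 9 h value (−0.31) was called without DMSO replicate 1 (−0.53). SLC1A1 (EAAT3) had 165 and 211 normalized counts in the DMSO libraries, 158 and 141 at 6 h, 184 and 188 at 9 h, and 202 and 194 at 12 h. The DMSO pair spanned all 9 and 12 h libraries. It was called lower at 6 h (−0.32 ± 0.12, limma, adjusted p = 0.0491), but the call was lost in 17 of 21 alternatives, for example without DMSO replicate 2 (−0.15), 6 h replicate 1 (−0.40) or 2 (−0.24), or any 9 or 12 h library (−0.32 each). It was higher at 12 h than at 6 h (0.40 ± 0.12), a call lost without 6 h replicate 2 (0.33) or 12 h replicate 1 (0.37) or 2 (0.44), with DESeq2 and without a trend. SLC6A6 (TauT), the taurine carrier, had 2176 and 2062 normalized counts in the DMSO libraries, 2339 and 2189.9 at 6 h, 2226 and 2153 at 9 h, and 1864 and 1812 at 12 h. Both 12 h libraries were the lowest. It fell at 12 h against DMSO (−0.20 ± 0.05) and was also lower than at 6 h (−0.30 ± 0.05). Without 12 h replicate 2 the call against DMSO was lost (−0.18). SLC6A8, the creatine carrier, had 1109 and 1141 normalized counts in the DMSO libraries, 1143 and 1187 at 6 h, 1180 and 1112 at 9 h, and 1093 and 1052 at 12 h, and was not called.

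SLC6A15 (B0AT2), a carrier of proline and branched-chain amino acids, had 106 and 120.3 normalized counts in the DMSO libraries, 158 and 140.3 at 6 h, 115 and 109 at 9 h, and 124 and 112 at 12 h. Both 6 h libraries were the highest, and it rose at 6 h (0.40 ± 0.13). The call was lost without DMSO replicate 1 (0.30) or 6 h replicate 1 (0.31), with group weights, with DESeq2 and in the authors' deposited tests, and its difference of −0.33 between 12 and 6 h was called without DMSO replicate 1 or 2 (−0.33 each). SLC6A17, a vesicular carrier of neurons, was at 19.8 to 40.8 and fell at 6 h (−0.80 ± 0.26) and 12 h (−0.87 ± 0.26). The 6 h call was lost without DMSO replicate 1 (−0.87) or 2 (−0.73) or 6 h replicate 1 (−0.67), and the 12 h call without DMSO replicate 2 (−0.80) or 12 h replicate 2 (−0.79). Both were also lost with DESeq2 and in the authors' deposited tests, and the 6 h call with group weights. SLC38A6, whose substrates are little known, had 331 and 379 normalized counts in the DMSO libraries, 417 and 441 at 6 h, 397 and 423 at 9 h, and 399 and 374 at 12 h. All Nutlin-3a libraries but 12 h replicate 2 lay above both DMSO libraries. It rose at 6 h (0.27 ± 0.09), a call lost without DMSO replicate 1 (0.18) or 6 h replicate 2 (0.23), with DESeq2, in the authors' deposited tests, with only the 2 groups compared and without a trend, while its 9 h value of 0.21 was called without DMSO replicate 2 (0.31). SLC36A4 (PAT4), at 941 to 1007, and the low members SLC1A3, SLC1A7, SLC6A9 and SLC6A16, at 7.31 to 25.8, were not called in any comparison.

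**Figure D5:**
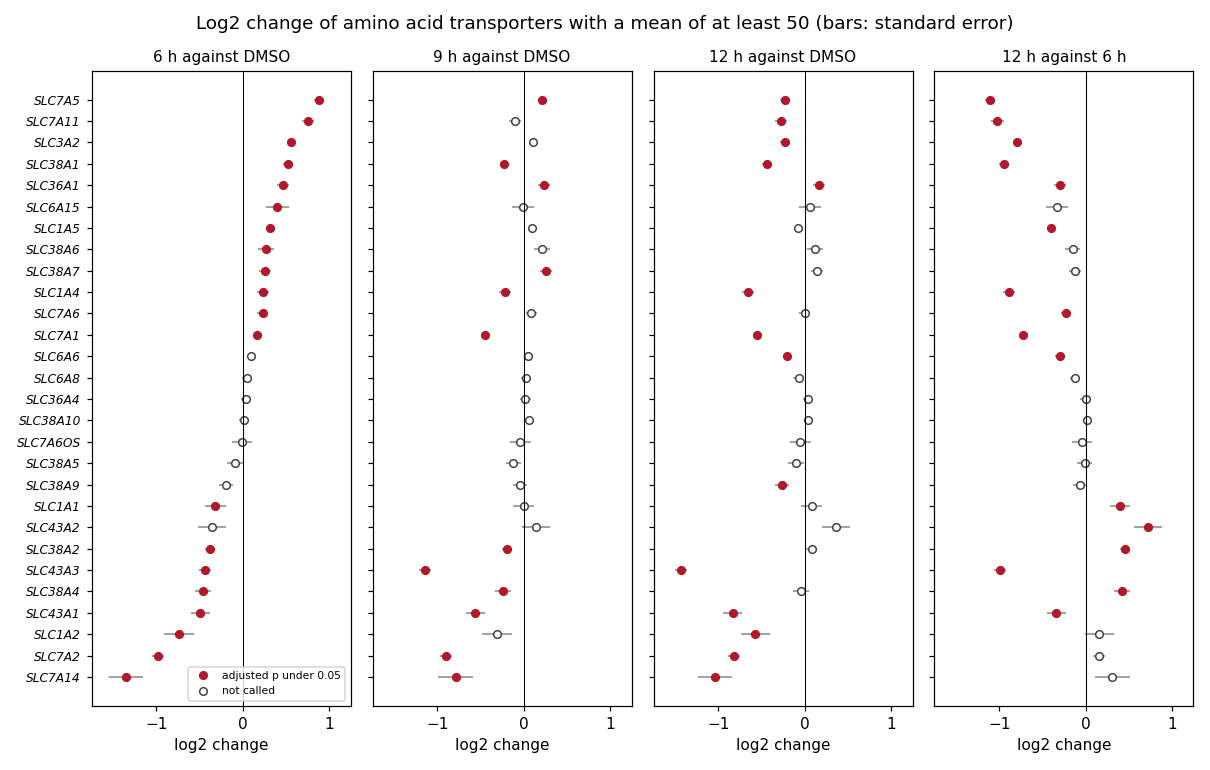
Log2 change (x axis, bars show the standard error) of the tested transporter genes with a mean normalized count of at least 50, ordered by their 6 h value, for 4 comparisons. SLC7A5 is highest at 6 h against DMSO (0.88) and lowest at 12 h against 6 h (−1.11), while SLC7A2 and SLC43A3 are below 0 at all times against DMSO.

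Promoter windows of 300 bases (250 before and 50 after a RefSeq transcript start, build GRCh38.p14) were searched for the core of the C/EBP-ATF response element, TGATGNAA, on both strands. The element, through which ATF4 can bind, was chosen with the values of the members known. It was found in 6 of 63 windows of 41 members, belonging to SLC1A3, SLC1A4, SLC1A5, SLC3A2, SLC7A1 and SLC38A1. Of all 35116 windows, 3.62% hold it, and by gene 14.6% of the 41 members and 4.46% of 27305 genes do. Members with several starts have several windows, and SLC7A11 was not matched. The E-box CACGTG, which no member window holds together with TGATGNAA, was in a window of 10 members (24.4%, against 8.77% of genes), and the cAMP response element TGACGTCA in 0 (0%, against 2.25%). Of all windows, 7.26% hold CACGTG and 1.85% TGACGTCA. The windows of the 5 genes called higher at 6 h are shown with the match in capitals, in the direction of the gene. Read in the direction of the gene, the match begins 7 bases before the start in SLC1A4 (opposite strand), 97 before in SLC1A5 and 4 before in SLC38A1. It begins at base 38 after the start in SLC3A2 (opposite strand) and at base 8 after it in SLC7A1. In SLC1A4 and SLC38A1 its 8 letters run across the start. The start of the SLC38A1 window was not found among GENCODE 29 transcripts of that gene, while the others were.
SLC1A4 (chr2:64989149-64989448, + strand): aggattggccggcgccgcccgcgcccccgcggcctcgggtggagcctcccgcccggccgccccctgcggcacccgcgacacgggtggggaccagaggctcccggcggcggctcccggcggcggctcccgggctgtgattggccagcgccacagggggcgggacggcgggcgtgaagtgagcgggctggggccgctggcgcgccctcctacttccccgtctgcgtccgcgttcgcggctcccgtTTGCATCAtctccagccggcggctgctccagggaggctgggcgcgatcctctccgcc
SLC1A5 (chr19:46784765-46785064, - strand): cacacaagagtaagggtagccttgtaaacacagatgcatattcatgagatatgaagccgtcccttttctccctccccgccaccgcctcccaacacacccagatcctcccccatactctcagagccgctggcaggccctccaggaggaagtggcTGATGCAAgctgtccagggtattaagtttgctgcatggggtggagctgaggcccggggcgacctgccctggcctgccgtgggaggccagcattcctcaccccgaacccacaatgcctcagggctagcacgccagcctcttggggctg
SLC38A1 (chr12:46266467-46266766, - strand): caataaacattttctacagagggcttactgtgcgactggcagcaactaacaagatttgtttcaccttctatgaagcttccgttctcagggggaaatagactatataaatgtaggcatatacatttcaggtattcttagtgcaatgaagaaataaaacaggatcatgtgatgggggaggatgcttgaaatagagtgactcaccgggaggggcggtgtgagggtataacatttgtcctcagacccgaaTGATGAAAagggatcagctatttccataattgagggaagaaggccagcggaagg
SLC3A2 (chr11:62881449-62881748, + strand): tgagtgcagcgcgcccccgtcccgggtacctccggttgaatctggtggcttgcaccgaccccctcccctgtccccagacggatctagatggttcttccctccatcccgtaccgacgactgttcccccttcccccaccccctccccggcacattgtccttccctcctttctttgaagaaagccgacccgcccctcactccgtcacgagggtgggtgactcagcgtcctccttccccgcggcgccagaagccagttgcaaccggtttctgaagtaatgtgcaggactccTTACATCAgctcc
SLC7A1 (chr13:29595639-29595938, - strand): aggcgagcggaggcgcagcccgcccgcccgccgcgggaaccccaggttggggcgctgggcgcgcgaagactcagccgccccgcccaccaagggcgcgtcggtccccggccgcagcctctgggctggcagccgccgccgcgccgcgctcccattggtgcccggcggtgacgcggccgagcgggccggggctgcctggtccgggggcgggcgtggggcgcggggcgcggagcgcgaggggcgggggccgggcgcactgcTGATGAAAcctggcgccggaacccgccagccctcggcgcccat

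A match is a description of letters and not a measured site. These 5 genes had log2 changes at 6 h of 0.23, 0.32, 0.52, 0.56 and 0.17 in the order shown. SLC7A5, with the largest increase among members called at 6 h, has no TGATGNAA in its window, and SLC1A3, with a match 220 bases before a start, was not called at any time. SLC7A6, SLC36A1, SLC38A6 and SLC38A7 also rose at 6 h and have no match in any window. SLC1A4, SLC1A5, SLC3A2 and SLC38A1 each have further windows, not shown, without a match. Whether a match goes with a rise was not tested.

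Genes of connected pathways were counted from lists chosen for this purpose. Of 25 tested genes of ATF4 and the integrated stress response, 17 rose and 3 fell at 6 h, 12 and 5 at 9 h, and 9 and 6 at 12 h, with medians of 0.45, 0.16 and 0.08 (−0.01, 0.01 and 0.01 for all genes). The shares that rose were 68, 48 and 36%, against 16.1, 16.2 and 18.5% of all genes, and those that fell 12, 20 and 24%, against 20.6, 19.1 and 21.4%. Between 6 and 12 h 2 rose and 15 fell (8 and 60%, against 14.4 and 17.1% of all genes), with a median of −0.28. ATF4 itself had 4651 and 4007 normalized counts in the DMSO libraries, 5268 and 5642 at 6 h, 3903 and 3977 at 9 h, and 4070.1 and 3984 at 12 h. It rose at 6 h (0.34 ± 0.06), was not called at 9 and 12 h (−0.13 and −0.10) except without DMSO replicate 2 (−0.24 and −0.21), and was lower at 12 h than at 6 h (−0.44 ± 0.06). TRIB3, a pseudokinase that ATF4 induces, had 504 and 444 with DMSO, 1277 and 1262 at 6 h, 554 and 591 at 9 h, and 555 and 476 at 12 h, a log2 change of 1.42 ± 0.08 at 6 h and of −1.30 ± 0.08 between 6 and 12 h. Its 9 h value of 0.27 was called, but not without DMSO replicate 2 (0.18) or 9 h replicate 2 (0.23), and its 12 h value of 0.12 was called without DMSO replicate 1 (0.21). ASNS (asparagine synthetase) rose at 6 and 9 h (0.47 and 0.31), CHAC1, which degrades glutathione, at all times (0.50, 0.19 and 0.36), and DDIT3 (CHOP) likewise (0.58, 0.48 and 0.29). The CHAC1 call at 9 h was lost without DMSO replicate 2 (0.13) or 9 h replicate 1 (0.14), and the DDIT3 call at 12 h without 12 h replicate 1 (0.27). EIF2AK4 (GCN2), the kinase that senses uncharged tRNA, rose at 12 h (0.18). SESN2 and SESN1, sestrins that restrain mTORC1 and are known p53 targets, rose at each time (SESN2 2.07, 1.76 and 1.66, SESN1 2.46, 2.39 and 2.35), and DDIT4 by 1.37, 0.96 and 1.04. SESN2 and DDIT4 are on the list of ATF4 and the integrated stress response and are part of its counts. So is ATF3 (1.84, 1.24 and 1.03), named after its values were seen. The share of that list that rose thus includes the known p53 target SESN2 and may include others. The part of p53 in it was not tested. Other members of that list fell. Of these, also chosen after their values were seen, ATF5 (−0.24, −0.33 and −0.40) and EIF4EBP1 (−0.22, −0.32 and −0.49) fell at each time. CEBPG rose at 6 h (0.51) and fell at 9 and 12 h (−0.22 and −0.43). The calls of ATF3, ATF5, EIF4EBP1 and CEBPG were not followed through the alternatives.

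Of 37 tested enzymes of amino acid metabolism, 9 rose and 6 fell at 6 h, 5 and 8 at 9 h, and 8 and 9 at 12 h. These are 24.3 and 16.2%, 13.5 and 21.6%, and 21.6 and 24.3% of the list, beside 16.1 and 20.6%, 16.2 and 19.1%, and 18.5 and 21.4% of all genes, and the same shares of all genes apply to the lists that follow. PSAT1, of serine synthesis, rose at 6 and 9 h (0.52 and 0.27) and was lower at 12 h than at 6 h (−0.64 ± 0.05), and PHGDH, the first enzyme of that pathway, fell at 9 and 12 h (−0.19 and −0.35), the 9 h call being lost without 9 h replicate 2 (−0.18). GLUL (glutamine synthetase) fell at each time (−0.27, −0.37 and −0.44), and GLS2, a glutaminase at 20.5 to 30.3 normalized counts, was not called. Of 22 genes of cystine, glutathione and ferroptosis, 8, 6 and 7 rose (36.4, 27.3 and 31.8%) and 4 fell at each time (18.2%), with GCLC, GCLM and GPX4, of glutathione synthesis and use, not called. Of 2 further genes of that kind, chosen after their values were seen, GSS (glutathione synthetase) rose at 9 and 12 h (0.16 and 0.29) and GSR (glutathione reductase) fell at each time (−0.27, −0.29 and −0.27). The GSS call at 9 h was lost without 9 h replicate 1 (0.18) or 2 (0.15), with only the 2 groups compared, with DESeq2 and in the authors' deposited tests. Without DMSO replicate 2 GCLM was called higher at 6 and 12 h (0.30 and 0.25), GPX4 lower at 9 and 12 h (−0.15 and −0.20) and GCLC lower at 12 h (−0.17). Of 37 genes of amino acid sensing by mTORC1, 9, 11 and 10 rose (24.3, 29.7 and 27%) and 5, 2 and 6 fell (13.5, 5.41 and 16.2%). Of members that rose, chosen after their values were seen, the Rag GTPase genes RRAGA (0.19, 0.25 and 0.30) and RRAGB (0.41, 0.35 and 0.46) rose at each time, and RRAGC (0.52 and 0.26) and FLCN (0.53 and 0.29), which acts on Rag GTPases, at 6 and 9 h. The RRAGA call at 6 h was lost without 6 h replicate 2 (0.14) and the FLCN call at 9 h without DMSO replicate 1 (0.16). Those 2 calls and the RRAGC call at 9 h were lost without a trend, and RRAGC and FLCN were called at 12 h without DMSO replicate 2 (0.25 and 0.27). Of members that fell, also chosen after their values were seen, NPRL2 (−0.53) and NPRL3 (−0.24) fell at 6 h. DEPDC5 fell at 6 and 12 h (−0.32 and −0.37) and RHEB at 9 and 12 h (−0.32 and −0.47). These calls were not followed gene by gene through the alternatives. SESN1 and SESN2, which restrain mTORC1, are on this list too, so its counts give no single direction. MTOR fell at 6 h (−0.25 ± 0.05), DEPTOR, at 7.37 to 27.4, fell at 6 and 12 h (−1.03 and −1.36), and RRAGD, at 4.16 to 14.0, was not called. Both DEPTOR calls were lost without DMSO replicate 1 (−0.71 and −1.04), the 6 h call also without 6 h replicate 1 (−0.65) or any 9 or 12 h library (−1.03 each), and the 12 h call without 12 h replicate 1 (−1.28). Neither DEPTOR call held in the authors' deposited tests, and the 12 h call was also lost with DESeq2. The 6 h call of DEPTOR was lost as well with group weights, with a replicate block, with only the 2 groups compared and without a trend. Of 17 amino acid and peptide transporters of other SLC families, 3, 1 and 2 rose (17.6, 5.88 and 11.8%) and 2, 1 and 4 fell (11.8, 5.88 and 23.5%). CTNS, the lysosomal cystine exporter, rose at 6 h (0.34 ± 0.07) and was lower at 12 h than at 6 h (−0.46 ± 0.07), PQLC2, a lysosomal carrier of cationic amino acids, fell at 12 h (−0.28), and SLC15A4, a peptide and histidine carrier, was not called in the fit of all libraries. The PQLC2 call was lost without DMSO replicate 1 (−0.18) or 12 h replicate 1 (−0.27) or 2 (−0.29), and SLC15A4 was called at 12 h without DMSO replicate 2 (0.21).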

How the data were processed

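PolyA RNA of 8 IMR90 libraries was sequenced. STAR, DESeq2 and build hg19 are named in the submitters' processing notes, without versions, with counting tool, strand setting and annotation not given in the sources used here. A deposited table held counts scaled by the authors with size factors, a normalized signal. Their 3 other deposited tables held DESeq2 log2 fold changes (DMSO over Nutlin-3a, sign turned here), p-values before and after adjustment, and the Wald score. The 3 entries that name no gene held 28.2 to 29.1% of each library and were left out. Every value was a whole multiple of the value of 1 read (100% within a tolerance of 1e-06), so reads were recovered for count tests. In the 9 h replicate 1 library this value is so close to 1 that an automatic test gives no verdict.

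The log2(normalized count + 1) values went into limma 3.58.1 (R 4.3.3, mean-variance trend), as 1 fit of all 8 libraries (4 residual and 15.5 prior degrees of freedom), which understates changes of low genes. A gene was tested if 2 or more libraries reached 10. "Rose" and "fell" mean an adjusted p under 0.05, and an exact permutation test of 2 against 2 cannot go below 0.333. Alternatives included edgeR 4.0.16, DESeq2 1.42.0, other scalings, filters and pseudocounts, and leaving out each library. The limma, edgeR and DESeq2 tests were run on simulated counts of the 6 h comparison, with the same dispersion for all genes. Only limma had to meet a set standard there. Values by library were given for members with a mean of at least 50 and a call, or of at least 1000 without one, and the pathway genes named were listed whatever their values, apart from those said to be chosen later. A gene on the list of amino acid enzymes is not reported here and was left out of that list's counts. The members and lists were chosen with earlier results of these data known.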

Additional observations from a re-analysis of the deposited data

Results flagged for a closer look

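The log2 change from DMSO differed between 12 and 6 h, by the direct comparison of these groups (limma, adjusted p under 0.05), for 17 members. The difference, 12 h minus 6 h, was −1.11 for SLC7A5, −1.02 for SLC7A11, −0.99 for SLC43A3, −0.95 for SLC38A1, −0.89 for SLC1A4, −0.79 for SLC3A2 and −0.72 for SLC7A1. It was −0.61 for SLC7A7, −0.40 for SLC1A5, −0.34 for SLC43A1, −0.30 for SLC6A6, −0.30 for SLC36A1 and −0.23 for SLC7A6. The 4 members with a positive difference were SLC43A2 (0.72), SLC38A2 (0.46), SLC38A4 (0.42) and SLC1A1 (0.40). Of all genes tested, 31.5% were called in this comparison. Groups of 2 libraries are too small for a test of single outlying libraries.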

How the results depend on the processing

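All alternatives planned were run, and no called transporter gene changed direction in any of them. Among values of single members, 2168 kept their call or lack of it, 112 lost a call and 25 gained one. The number that rose at 9 h (3) was 5 after quantile normalization or with edgeR and 1 without an intensity trend. The number that rose at 12 h (2) was 1 with a mean of at least 50, with only the 2 groups compared or without a trend, and 0 with DESeq2, with the authors' deposited tests or with group weights. Leaving out a library in turn gave 8 to 12 that rose and 7 to 9 that fell at 6 h, 0 to 4 and 6 to 10 at 9 h, 0 to 3 and 10 to 14 at 12 h, and 3 to 5 and 10 to 14 for 12 h against 6 h. Where a group kept 1 library, it was assumed to vary like the others. Correlations of replicate differences between groups were −0.152 to 0.0914, none above 0.1, so no shift shared by replicate number was seen. With 1 such difference per group, this cannot exclude that samples were paired. With a replicate block 12 rose and 8 fell at 6 h, 3 and 9 at 9 h, 2 and 14 at 12 h, and 4 and 13 for 12 h against 6 h. The only member call lost under it was that of SLC1A1 at 6 h (adjusted p = 0.0573). Members with counts of a few reads cannot be compared at this depth.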
